A study of Mus musculus with 12 samples.

Results

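TRAV4D-4, TRAV4N-4 and TRAV4-4/DV10 are 3 near-identical copies of one Vα gene segment of the mouse Tcra locus, called TRAV4-4 here as a group. Their chains were the rows whose V segment was one of these copies and whose CDR3, the loop made where V and J meet, read in frame without a stop codon. The members were thus chosen by the V label and the reading frame of each measured sequence, and neither is a finding. The members were 2936 rows with 13033 UMIs, out of 57431 rows with 199248 UMIs in all, a UMI (unique molecular identifier) being the random tag that stands for 1 captured Tcra mRNA. The frame rule left out all 557 TRAV4-4 UMIs joined to TRAJ44 and 126 of the 128 joined to TRAJ47, whose deposited CDR3 ended 1 base past a codon, and without that base each of them read in frame. Values by J segment therefore do not cover TRAJ44 and TRAJ47. The members held 1056 clonotypes, a clonotype being one CDR3 amino acid sequence with one J segment.

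The chains came from newly developed Treg, sorted as CD4+CD8-Thy1.1+GFP+ thymocytes from 12 individual mice aged 3 weeks. There were 4 mice without a cytokine mutation (wt), 4 with a null mutation of Il2 (Il2°) and 4 with a null mutation of Il15 (Il15°). All 12 mice were on the B6 background and carried Rag2-Gfp (GFP under the Rag2 promoter, which marks cells that expressed Rag2 recently), Foxp3-Thy1a (Thy1.1 under the Foxp3 promoter), the Kaa Tcrb transgene and a heterozygous Tcra null mutation. Every cell could thus use the same transgenic TCRβ chain, a public chain of the CD4 response to a myelin protein in C57BL/6 mice, so that the values describe α chains beside that one β chain.

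During thymocyte development the RAG enzymes cut the DNA beside a Vα and a Jα segment. Other enzymes then trim the ends, add bases at random and join them, and the join encodes CDR3α. The germline V segment gives the first CDR3 residues, the J segment gives the last, and the middle, which lies over the peptide held by MHC, varies most. IL-2 and IL-15 are cytokines that share a receptor β and γ chain and act on Treg precursors in the thymus. The comparison between genotypes addressed whether the α chains of developing Treg differ without either cytokine.

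The copies lie on the plus strand of chromosome 14 in GRCm38, the build also known as mm10. Trav4d-4 is at chr14:52990866-52991389, Trav4n-4 at chr14:53302036-53302559 and Trav4-4-dv10 at chr14:53683647-53684177, each annotated as a TR_V_gene. Over the 354 bases of the annotated transcripts TRAV4D-4 and TRAV4N-4 did not differ, and TRAV4-4/DV10 differed from them at 11 bases. The authors' alignment gave 99.2% of the UMIs to TRAV4D-4, 0.422% to TRAV4-4/DV10 and 0.345% to TRAV4N-4. Since reads of identical copies cannot be assigned, the division between copies is uncertain and all values below are for the 3 copies together.

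The germline ends that most of the results turn on are shown first, 5′ to 3′, in lower case. The V end starts at the codon of the conserved cysteine, and each J start runs from the first base of the segment to the codon of the conserved phenylalanine.
TRAV4D-4 end: tgtgctgctgagg
TRAJ17 start: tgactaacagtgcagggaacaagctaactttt
TRAJ15 start: cctaccagggaggcagagctctgatattt
TRAJ9 start: agcaacatgggctacaaacttaccttc
TRAJ11 start: tgactcgggatacaacaaactcactttt
TRAJ48 start: gccaactatggaaatgagaaaataactttt

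The leading sequences of some of the clonotypes named below follow, because they show how much of each CDR3 is germline. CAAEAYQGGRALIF had rank 11 by mean share and was named for a small p. Capitals mark bases that matched neither the V end nor the J start.
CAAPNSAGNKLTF with TRAJ17: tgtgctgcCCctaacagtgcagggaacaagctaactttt
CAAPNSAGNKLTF with TRAJ17, the next most frequent sequence: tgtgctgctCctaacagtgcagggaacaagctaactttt
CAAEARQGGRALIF with TRAJ15: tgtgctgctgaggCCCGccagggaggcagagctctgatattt
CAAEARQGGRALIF with TRAJ15, the next most frequent sequence: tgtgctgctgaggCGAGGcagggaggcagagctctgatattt
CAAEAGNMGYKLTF with TRAJ9: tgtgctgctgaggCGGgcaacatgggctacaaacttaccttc
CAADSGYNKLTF with TRAJ11: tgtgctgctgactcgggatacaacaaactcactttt
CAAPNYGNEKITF with TRAJ48: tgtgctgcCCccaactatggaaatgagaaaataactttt
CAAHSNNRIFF with TRAJ31: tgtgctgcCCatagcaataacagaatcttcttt
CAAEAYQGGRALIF with TRAJ15: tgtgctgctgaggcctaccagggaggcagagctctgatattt
The shown sequences of the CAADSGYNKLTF and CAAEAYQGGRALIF clonotypes had 0 bases outside the germline ends and made up 79.4% and 92.5% of the UMIs of their clonotypes. The clonotype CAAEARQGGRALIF was built from 23 different nucleotide sequences, the most frequent of which held 16.8% of its UMIs. The clonotype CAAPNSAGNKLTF was built from 16 sequences, of which those shown held 39.8% and 35.4%.

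The 12 libraries held between 7625 and 25980 UMIs, and a count of 3 UMIs, taken as the limit that a count of 0 allows, corresponded to between 0.0115% and 0.0393% of a library. All intervals and limits cover counting error only. The α chains of NKT and MAIT cells were rare. The invariant NKT chain, TRAV11 with TRAJ18, made up between 0.00538% and 0.109% of the UMIs of a library, and the MAIT chain, TRAV1 with TRAJ33, between 0 and 0.236%. Chains of other cells were not assessed.

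TRAV4-4 was the V group with rank 4, at 6.45% ± 0.547 of all UMIs (SD, n = 12), among 49 V groups. The V group with the highest share was its neighbour TRAV4-3, at 23.4%. In wt mice the TRAV4-4 share was 7.22%, 7.22%, 7.28% and 6.26% of all UMIs. It was 6.08%, 6.40%, 5.66% and 5.98% in Il2° mice and 6.20%, 6.80%, 6.11% and 6.14% in Il15° mice. The 95% Wilson interval of a single library was widest in the smallest library, from 5.47% to 6.54%. The wt replicates 1, 2 and 3 lay above all 8 mutant libraries, and wt replicate 4 lay among them.

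Shares averaged 6.997% ± 0.491 among wt mice (SD, n = 4), 6.03% ± 0.304 among Il2° mice and 6.32% ± 0.327 among Il15° mice. Each mutant differed from wt with p = 0.0571 in an exact 2-sided Mann-Whitney test, and the mutants differed from each other with p = 0.20 (adjusted p = 0.30, 0.30 and 0.42 over the 21 tests of 7 measures in 3 comparisons). With 4 mice a side this test cannot go below 0.0286, a value it reaches only without overlap. Of the 21 V groups at 1% or more of UMIs, 9.52% did not overlap between Il2° and wt, 4.76% between Il15° and wt and 14.3% between Il15° and Il2°. Without wt replicate 4 both mutants lay fully below wt, by 1.21 and 0.926 percentage points on average, where the exact test of 3 mice and 4 reaches at best p = 0.0571. A lower share of UMIs could come from fewer cells with the chain or from less Tcra mRNA per cell, which cannot be told apart here.

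**Figure D1:**
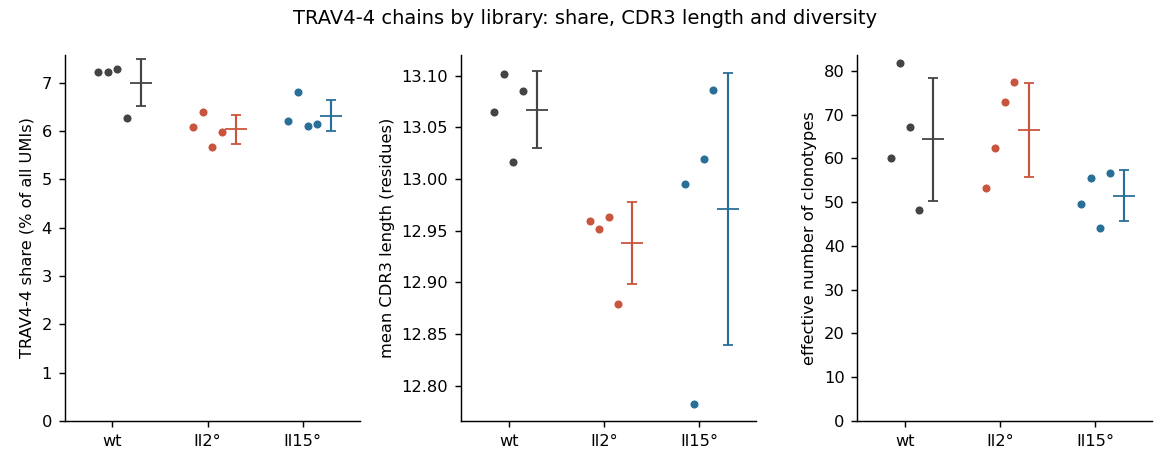
TRAV4-4 share of all UMIs in percent, mean CDR3 length in residues (axis not from 0) and effective number of clonotypes, by genotype; points are the 4 libraries of a genotype and the bar beside them is the mean with its SD. The 4 Il2° libraries lie below the 4 wt libraries in CDR3 length, at means of 12.94 and 13.07 residues, and the genotypes overlap in the other measures.

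By share of UMIs, 2 J segments were the most common partners of TRAV4-4. TRAJ17 and TRAJ15 each made up 15.7% of the in-frame UMIs of TRAV4-4 (SD 3.70 and 4.29, n = 12), against 3.74% and 4.69% in chains with any other V. The TRAJ17 share ran from 12.4% to 25.7% over the 12 mice for TRAV4-4 and from 2.90% to 4.74% for the other V. The TRAJ15 share ran from 7.76% to 21.5% for TRAV4-4 and from 3.82% to 5.62% for the other V. For both segments the lowest value with TRAV4-4 was above the highest value with the other V.

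TRAJ11 made up 5.16% ± 1.79 of TRAV4-4 chains and 1.06% ± 0.202 of the others. TRAJ48 made up 4.62% ± 2.83 against 0.444% ± 0.145, TRAJ43 made up 3.02% ± 1.42 against 0.571% ± 0.0934, and TRAJ57 made up 2.71% ± 1.28 against 0.500% ± 0.0793. Each of these 6 segments was higher with TRAV4-4 in 12 of 12 mice. TRAJ9 was higher in 9 of 12 mice, at 9.33% ± 3.27 against 6.99% ± 0.944.

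Other segments were scarce with TRAV4-4. TRAJ12 made up 2.86% of its chains against 9.07% of the others, TRAJ31 made up 4.64% against 9.34%, TRAJ37 made up 0.974% against 5.57% and TRAJ26 made up 0.473% against 3.79%, each lower in 12 of 12 mice. TRAJ22 (5.15% against 5.74%), TRAJ21 (4.96% against 4.59%), TRAJ13 (2.63% against 2.56%) and TRAJ4 (1.77% against 2.38%) did not pass the test.

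In exact 2-sided sign-flip tests over the 12 mice, 7 of the 21 J segments tested rose in TRAV4-4 and 10 fell at an adjusted p under 0.05, which is 81% of those tested. For 12 of 12 mice in one direction the p was 0.000488, the smallest possible, and the adjusted p 0.000684. TRAJ9 reached an adjusted p of 0.0440. The same test for each of the 21 V groups called 75.7% of 403 V-J comparisons, so that a J usage unlike the rest was common to V groups and the share called in TRAV4-4 was near that background.

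**Figure D2:**
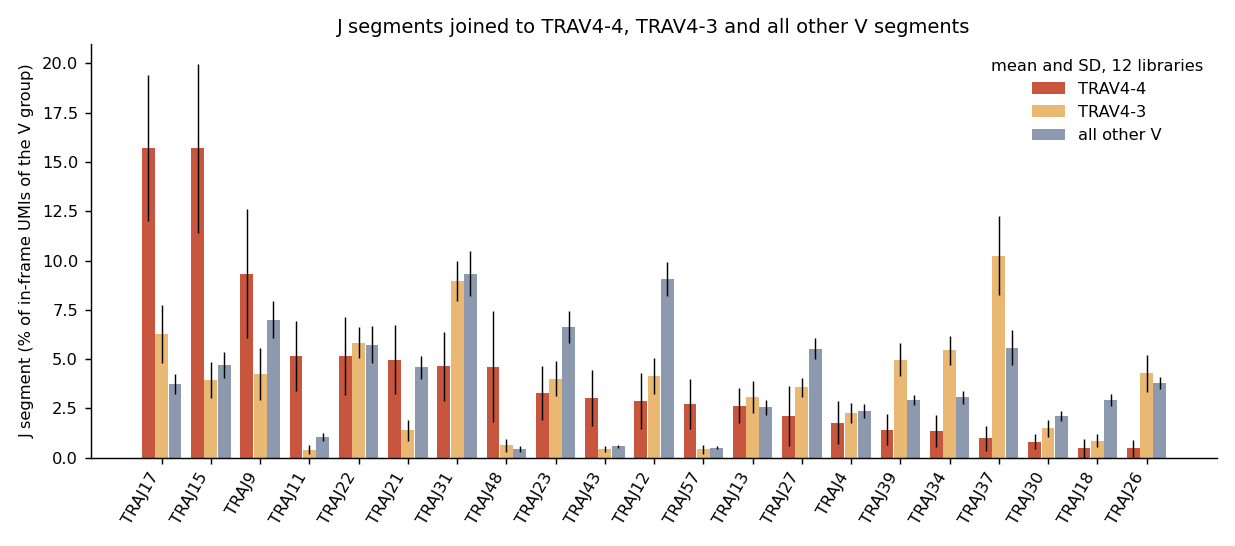
Percent of in-frame UMIs joined to each of the 21 J segments tested, for TRAV4-4, for TRAV4-3 and for all V other than TRAV4-4; bars are means over 12 libraries and lines are the SD. TRAJ17 and TRAJ15 stand at 15.7% with TRAV4-4, and TRAJ37 at 0.974% with TRAV4-4 and 10.2% with TRAV4-3.

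TRAV4-3 (TRAV4-3, TRAV4D-3 and TRAV4N-3) is a useful comparison because the annotated TRAV4D-3 has the same bases as TRAV4D-4 from the conserved cysteine to the V end. Over 331 bases of their transcripts the segments differed at 33. Against TRAV4-3, 8 of the 22 J segments tested rose in TRAV4-4 and 10 fell at an adjusted p under 0.05 in the sign-flip test. The share called between other pairs of V groups was not computed, so this count has no background beside it. TRAJ37 and TRAJ32 made up 10.2% and 5.92% of TRAV4-3 chains but 0.974% and 0.231% of TRAV4-4 chains, lower with TRAV4-4 in 12 of 12 mice. TRAJ11 made up 0.396% of TRAV4-3 chains and TRAJ48 made up 0.631%, against 5.16% and 4.62% with TRAV4-4.

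A CDR3 sequence with its J segment could be found with both V groups. Of the 1056 clonotypes of TRAV4-4, 203 also occurred with TRAV4-3, which was 19.2% of the TRAV4-4 clonotypes and 5.98% of the 3392 TRAV4-3 clonotypes. The shared clonotypes held 47.6% of the TRAV4-4 UMIs and 25.5% of the TRAV4-3 UMIs. Any number of UMIs counted as an occurrence, so the 47.6% includes leading TRAV4-4 clonotypes that had only a few UMIs with TRAV4-3. Each of the 8 TRAV4-4 clonotypes with the highest mean share had between 0 and 5 UMIs with TRAV4-3. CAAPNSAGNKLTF with TRAJ17 made up 12.3% ± 3.12 of TRAV4-4 UMIs (SD, n = 12) and had 4 UMIs among the 47449 of TRAV4-3. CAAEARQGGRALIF with TRAJ15 made up 9.77% ± 2.82 of TRAV4-4 UMIs and had 5 UMIs with TRAV4-3. These clonotypes were picked for their share in TRAV4-4, so the contrast is a description.

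Most of the TRAJ17 excess came with 1 clonotype. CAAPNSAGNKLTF held 78.5% of the TRAJ17 UMIs of TRAV4-4. Without it TRAJ17 made up 3.94% ± 1.75 of the remaining TRAV4-4 chains, which did not pass the sign-flip test against the other V (adjusted p = 0.773). The clonotype was picked as the largest of TRAV4-4 and the other V kept all their clonotypes, so a lower TRAJ17 share was built into this comparison. TRAJ15 was spread more widely, over 84 clonotypes, and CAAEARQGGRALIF held 61.5% of its UMIs. The leading clonotype held 88.8% of the TRAJ48 UMIs, 80.9% for TRAJ11, 64.8% for TRAJ43 and 59.6% for TRAJ9. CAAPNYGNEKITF made up 4.12% of TRAV4-4 UMIs, where all of TRAJ48 made up 4.62%, against 0.444% with the other V. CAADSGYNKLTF made up 4.27%, where all of TRAJ11 made up 5.16%, against 1.06% with the other V. These segments were not tested without their leading clonotypes. For TRAJ21, with 76 clonotypes, it held 7.58%.

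Within the same mice, the CDR3 of TRAV4-4 chains was shorter than that of the other V, at 12.99 ± 0.0938 against 13.09 ± 0.0218 residues (a difference of -0.0959), with 2 of 12 mice going the other way (exact sign-flip p = 0.00439, adjusted p = 0.00586 over 4 measures). It was longer than that of TRAV4-3, at 12.56 residues, in 12 of 12 mice (exact sign-flip p = 0.000488). The interior, meaning the residues left after 4 are taken off each end, had a Kyte-Doolittle hydropathy (negative values are hydrophilic) of -1.34 ± 0.0734 against -1.19 ± 0.0278, lower in 12 of 12 mice (exact sign-flip p = 0.000488, adjusted p = 0.00195). Arginine made up 6.50% of interior residues in TRAV4-4 chains and 3.50% in the others, and alanine made up 11.4% against 6.93%. These shares count UMIs, and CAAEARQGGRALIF, at 9.77% of TRAV4-4 UMIs on average, has the interior ARQGGR. Residue shares without the leading clonotypes were not compared. Threonine made up 3.50% against 8.32%.

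TRAV4-4 chains had 2.29 ± 0.210 nucleotides between the deposited V end and J start and the other chains 2.04 ± 0.0608, higher in 10 of 12 mice (exact sign-flip p = 0.00244, adjusted p = 0.00488). The mean J number was 22.8 ± 1.56 against 23.6 ± 0.680 (exact sign-flip p = 0.0996, adjusted p = 0.0996), where a lower number is a J segment closer to the constant region. With each clonotype counted once the hydropathy and the nucleotides between V and J no longer passed the exact test (p = 0.215 and p = 0.0923), whereas the J number turned to 0.929 higher in TRAV4-4 and passed it (exact sign-flip p = 0.00732). In wt libraries alone the length difference was -0.0131 residues, and an exact test of 4 mice cannot go below p = 0.125.

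The CDR3 of TRAV4-4 was most often 13 or 14 residues long, at 40.1% ± 6.74 and 33.5% ± 6.11 of its in-frame UMIs. It began with the germline residues CAA in 93.8% of UMIs. At position 4, where the germline V end encodes glutamate, glutamate stood in 40.8% ± 5.34 of UMIs, against 25.2% ± 4.15 in TRAV4-3. Proline came next, at 18.9% ± 3.81 against 10.7% ± 1.73. Both were above TRAV4-3 in 12 of 12 mice. Of the TRAV4-4 UMIs, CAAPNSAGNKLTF held 12.3% and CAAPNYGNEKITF 4.12% on average, both with proline at this position. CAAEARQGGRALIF held 9.77% and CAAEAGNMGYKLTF 5.48%, both with glutamate there. The glutamate and proline shares without these clonotypes were not compared with TRAV4-3. Serine stood at 2.10% ± 1.29 against 10.2% ± 2.24.

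CDR3 length differed between wt and Il2° mice without overlap. The mean length of TRAV4-4 chains was 13.065, 13.102, 13.016 and 13.086 residues in wt mice and 12.959, 12.951, 12.963 and 12.879 in Il2° mice. In Il15° mice it was 12.996, 12.782, 13.020 and 13.086 residues, which spanned both. Il2° chains were on average 0.129 residues shorter than wt chains, at 12.94 ± 0.0396 against 13.07 ± 0.0371 (SD, n = 4), with the smallest exact Mann-Whitney p the design allows, p = 0.0286, and an adjusted p of 0.30 that fails the correction over 21 tests. The length was measured without overlap between Il2° and wt in 14.3% of the 21 V groups, and with Il2° shorter in 9.52%. The mean of TRAV4-3 chains was also shorter in Il2°, at 12.45 residues against 12.62 in wt. Other V groups went the other way, such as TRAV10 at 13.21 against 13.12. The Il15° mean, 12.97 ± 0.131, did not differ from wt or from Il2° beyond the spread (exact Mann-Whitney p = 0.343 for both).

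The shorter mean came with a shift between the 2 most common lengths. CDR3 of 13 residues made up 32.7%, 37.1%, 31.2% and 35.9% of TRAV4-4 UMIs in wt and 47.7%, 53.4%, 39.7% and 40.4% in Il2°. CDR3 of 14 residues made up 41.6%, 36.0%, 36.5% and 39.4% in wt and 29.0%, 23.7%, 30.7% and 32.0% in Il2°. At both lengths the wt and Il2° libraries did not overlap, and Il15° libraries lay across both ranges. These values describe the same difference in length and were not tested on their own.

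**Figure D3:**
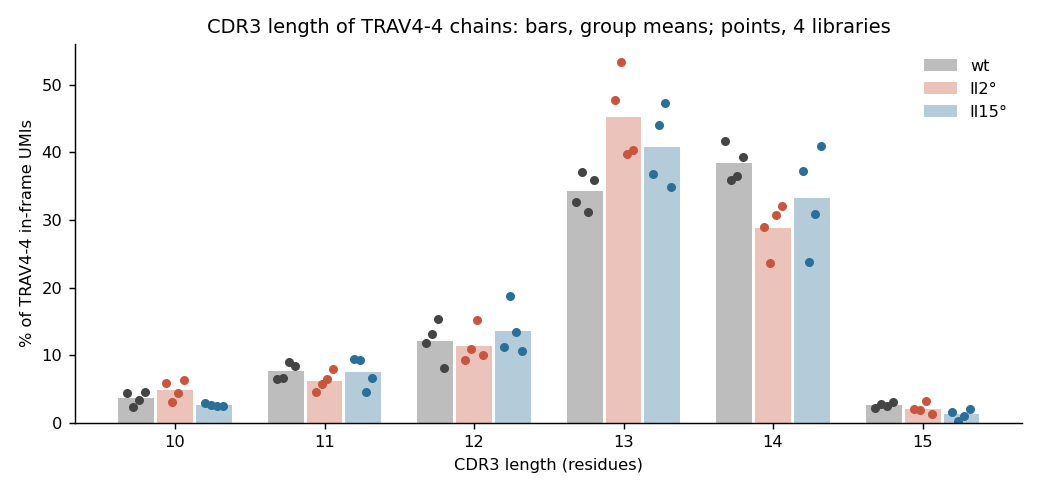
Percent of TRAV4-4 in-frame UMIs with a CDR3 of 10 to 15 residues, by genotype; bars are group means and points the 4 libraries. At 13 residues the Il2° libraries lie between 39.7% and 53.4%, above the wt libraries at 31.2% to 37.1%, and at 14 residues they lie below.

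Chains with glutamate at position 4 followed by alanine (CAAEA, 154 clonotypes, 45.8% of their UMIs with TRAJ15 and 23.0% with TRAJ9) made up 29.6%, 27.3%, 28.9% and 31.6% of TRAV4-4 UMIs in wt. They made up 20.3%, 17.3%, 26.2% and 24.1% in Il2° and 31.3%, 19.1%, 24.05% and 32.6% in Il15°. The 4 Il2° values lay below the 4 wt values. Chains with proline and asparagine at these positions (CAAPN, 19 clonotypes, 71.3% of their UMIs with TRAJ17 and 22.8% with TRAJ48) made up 15.2% ± 2.24 in wt, 20.5% ± 3.82 in Il2° and 18.0% ± 3.13 in Il15°, and the ranges overlapped. Both pairs of residues were chosen after their values were seen, and their differences between genotypes were not tested.

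The other measures overlapped between genotypes. For wt, Il2° and Il15° mice in that order, the interior hydropathy was -1.33 ± 0.0349, -1.36 ± 0.103 and -1.33 ± 0.0835. The nucleotides between V and J numbered 2.38 ± 0.0864, 2.39 ± 0.239 and 2.11 ± 0.178, and the mean J number was 22.1 ± 0.768, 23.8 ± 2.33 and 22.4 ± 0.821. The exact Mann-Whitney p of these measures lay between 0.114 and 0.886, which does not show that the genotypes were alike.

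TRAV4-4 chains were concentrated in few clonotypes in every mouse. In wt, Il2° and Il15° mice the 10 largest clonotypes held 46.5% ± 6.26, 45.1% ± 1.86 and 48.6% ± 2.71 of TRAV4-4 UMIs. After drawing each library down to the 456 TRAV4-4 UMIs of the smallest, the effective number of clonotypes (the exponential of Shannon entropy) was 60.2, 81.9, 67.2 and 48.2 in wt. It was 53.3, 62.3, 72.9 and 77.5 in Il2° and 49.6, 55.6, 44.2 and 56.6 in Il15°. Neither measure separated the genotypes, and the smallest exact Mann-Whitney p among them was 0.0571, for the 10 largest clonotypes in Il15° against Il2° (adjusted p = 0.30).

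A small number of clonotypes was present everywhere. Of the 1056 clonotypes, 584 were found in 1 library only and held 11.3% of TRAV4-4 UMIs, and 12 were found in all 12 libraries and held 44.8%. In wt, 36 clonotypes were found in all 4 libraries and held 58.6% ± 5.33 of TRAV4-4 UMIs. There were 25 such clonotypes in Il2°, holding 51.2% ± 2.26, and 27 in Il15°, holding 54.3% ± 2.64. Of the 36 of wt, 18 were also in all 4 Il2° libraries and 15 in all 4 Il15° libraries. The wt libraries were deeper, at 20800.5 UMIs on average against 13732.5 and 15279.0, which raises the chance of finding a clonotype in all 4, and the part of depth in these counts was not tested.

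**Figure D4:**
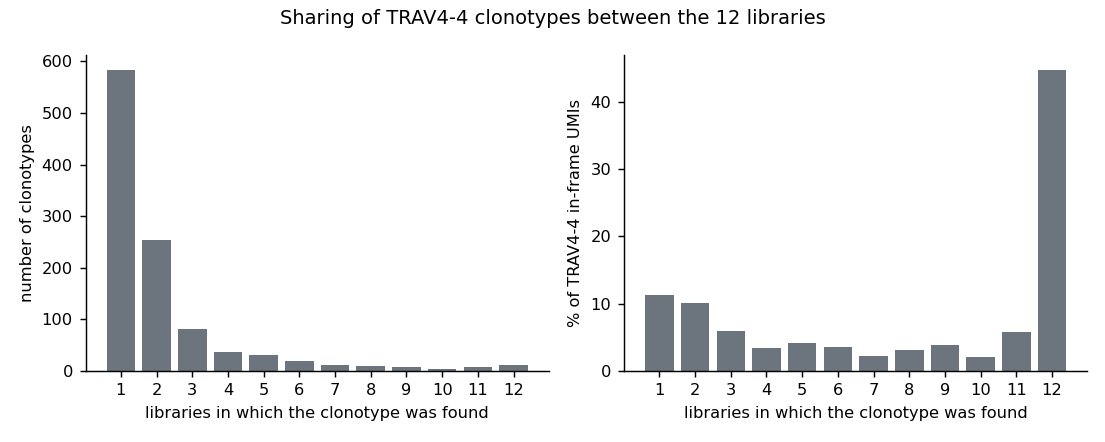
Number of TRAV4-4 clonotypes, and their percent of TRAV4-4 in-frame UMIs, by the number of libraries in which they were found. The bar for 1 library holds 584 clonotypes and 11.3% of UMIs, and the bar for 12 libraries holds 12 clonotypes and 44.8% of UMIs.

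The clonotype with the highest mean share, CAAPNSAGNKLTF with TRAJ17, made up 0.862%, 0.803%, 0.764% and 0.808% of all UMIs in wt. It made up 0.573%, 1.26%, 0.826% and 0.761% in Il2° and 0.882%, 0.552%, 0.809% and 0.549% in Il15°. The mutant libraries lay on both sides of the narrow wt range. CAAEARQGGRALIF with TRAJ15 made up 0.704%, 0.782%, 0.745% and 0.617% in wt, 0.783%, 0.477%, 0.683% and 0.643% in Il2° and 0.505%, 0.451%, 0.260% and 0.888% in Il15°. Neither passed edgeR's quasi-likelihood test with Benjamini-Hochberg adjustment in any comparison, with log2 fold changes from -0.47 to 0.17 and adjusted p of 0.759 or more. This does not show that the genotypes were alike.

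The TRAJ9 clonotype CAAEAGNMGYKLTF made up 0.693%, 0.284%, 0.438% and 0.583% of all UMIs in wt and 0.113%, 0.134%, 0.208% and 0.262% in Il2°. It made up 0.544%, 0.349%, 0.288% and 0.387% in Il15°. All 4 Il2° libraries lay below all 8 others. Its log2 fold change in Il2° against wt was -1.43 (SE 0.369), with an edgeR p of 0.000774 and an adjusted p of 0.0781, which missed the threshold. In Il15° against Il2° it was 1.12 (SE 0.407, edgeR adjusted p = 0.253). Without wt replicate 2, the wt library with its lowest share, the adjusted p against wt was 0.0371.

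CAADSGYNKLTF with TRAJ11, whose main sequence needs no added base, made up 0.362%, 0.280%, 0.288% and 0.277% of all UMIs in wt and 0.143%, 0.204%, 0.208% and 0.157% in Il2°. It made up 0.333%, 0.552%, 0.270% and 0.258% in Il15°. Again the Il2° libraries lay below all others, and the log2 fold change against wt was -0.67 (SE 0.348, edgeR adjusted p = 0.423). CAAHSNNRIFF with TRAJ31 made up between 0.108% and 0.208% in wt, between 0.0151% and 0.0787% in Il2° and at most 0.0861% in Il15°, with 0 UMIs in Il15° replicate 3. It was below wt in all 8 mutant libraries, at edgeR log2 fold changes of -1.07 (SE 0.557) in Il2° and -1.34 (SE 0.635) in Il15°, with adjusted p of 0.423 and 0.773.

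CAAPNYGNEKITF with TRAJ48 varied more within genotypes than between them, from 0.0376% in wt replicate 3 to 0.588% of all UMIs in Il2° replicate 1. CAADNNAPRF with TRAJ43 ranged from 0.0509% to 0.289% and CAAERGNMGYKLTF with TRAJ9 from 0.0452% to 0.223%. None of these passed the test in any comparison.

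**Figure D5:**
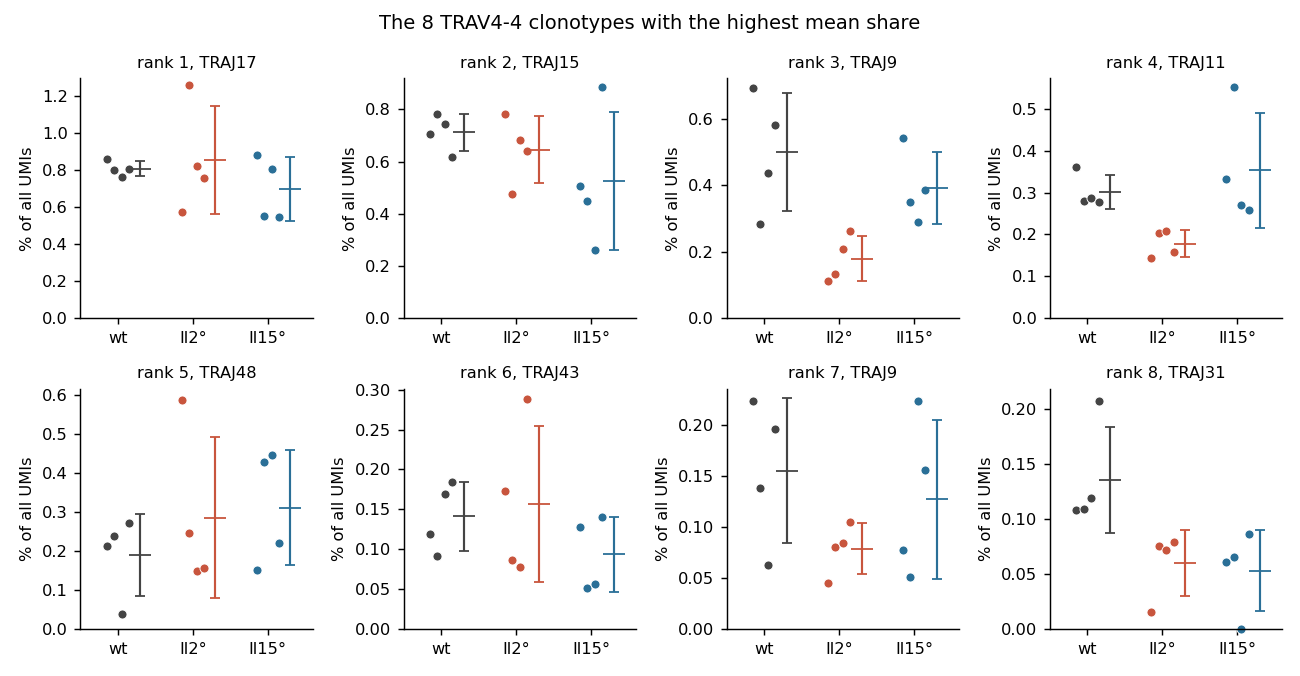
Percent of all UMIs of the 8 TRAV4-4 clonotypes with the highest mean share, by genotype; each panel is 1 clonotype, named by its rank and J segment, with the 4 libraries as points and the mean with its SD beside them. At rank 3 (TRAJ9) and rank 4 (TRAJ11) the Il2° libraries lie below all others, at 0.179% and 0.178% on average.

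Over the whole table no TRAV4-4 clonotype passed an adjusted p under 0.05 in edgeR. Clonotypes that reached 5 UMIs in 4 or more of 8 libraries were tested, 26 of TRAV4-4 among 493 clonotypes in Il2° against wt, 30 among 527 in Il15° against wt and 21 among 388 in Il15° against Il2°. The calls among all V were 0.203%, 0% and 0.515%. At an unadjusted p under 0.05 there were 3, 2 and 4 TRAV4-4 clonotypes, against a background of 12.6%, 6.26% and 13.1% of all clonotypes tested. Without overlap between the groups there were 4, 1 and 3, against 7.71%, 6.26% and 11.1% of all clonotypes tested. DESeq2 also called 0 in each comparison. The median log2 fold change of the TRAV4-4 clonotypes tested was -0.17, -0.13 and 0.17, against 0.12, -0.09 and -0.06 over all clonotypes tested.

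Among the clonotypes named for a small p, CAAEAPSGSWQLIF with TRAJ22 made up 0.0962%, 0.100%, 0.131% and 0.121% of all UMIs in wt and 0.0151%, 0.0483%, 0.0195% and 0.0262% in Il2°, with a log2 fold change of -1.88 (SE 0.615, edgeR adjusted p = 0.190). The wt and Il2° libraries did not overlap, but Il2° counts were between 2 and 9 UMIs. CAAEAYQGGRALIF with TRAJ15 made up between 0.0878% and 0.238% in wt and had 0 UMIs in 1 Il2° and 2 Il15° libraries. It reached 0.0910% in Il2° and 0.0968% in Il15°, so both mutants overlapped wt. The log2 fold changes against wt were -1.62 in Il2° (SE 0.682, edgeR adjusted p = 0.309) and -1.75 in Il15° (SE 0.783, edgeR adjusted p = 0.773). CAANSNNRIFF with TRAJ31 made up 0.00753%, 0.0214%, 0.0130% and 0.0393% in Il2° and between 0.0646% and 0.233% in Il15°, with a log2 fold change of 2.46 in Il15° against Il2° (SE 0.869, edgeR adjusted p = 0.249).

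TRAV4-4 with TRAJ9 made up 1.16%, 0.498%, 0.626% and 0.848% of all UMIs in wt, 0.271%, 0.424%, 0.423% and 0.472% in Il2°, and 0.783%, 0.581%, 0.614% and 0.570% in Il15°. All Il2° libraries lay below all others. The log2 fold change in Il2° against wt was -0.95 (SE 0.279, edgeR adjusted p = 0.132), and without wt replicate 2 the edgeR adjusted p was 0.0463. TRAV4-4 with TRAJ31 had a log2 fold change of -1.11 (SE 0.356, edgeR adjusted p = 0.150) and TRAV4-4 with TRAJ11 one of -0.84 (SE 0.304, adjusted p = 0.193), both without overlap between Il2° and wt. Named after their values were seen, TRAV4-4 with TRAJ50 had a log2 fold change of 2.13 (SE 0.837, edgeR adjusted p = 0.268), also without overlap, and TRAV4-4 with TRAJ24 one of -2.35 (SE 0.824, edgeR adjusted p = 0.190), with overlap. TRAV4-4 with TRAJ16 had one of 2.96 (SE 1.07, edgeR adjusted p = 0.193), with overlap. TRAJ17 and TRAJ15, the leading partners, had log2 fold changes of 0.20 (SE 0.227) and -0.26 (SE 0.213).

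In Il15° against wt, TRAV4-4 with TRAJ23 made up between 0.270% and 0.342% of all UMIs in Il15° and between 0.0501% and 0.238% in wt (log2 fold change 1.02, SE 0.389, edgeR adjusted p = 0.608). TRAV4-4 with TRAJ16 was near the limit of detection, at 0 to 0.0251% in wt and up to 0.0753% in Il15°. TRAV4-4 with TRAJ22 differed most between the mutants by p, with 0.105%, 0.241%, 0.215% and 0.275% in Il2° and 0.516%, 0.269%, 0.428% and 0.414% in Il15° (log2 fold change 1.03, SE 0.380, edgeR adjusted p = 0.211).

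No V-J pair of TRAV4-4 passed an adjusted p under 0.05 in the 3 edgeR comparisons, among 31, 27 and 27 TRAV4-4 pairs of 476, 467 and 429 pairs tested. DESeq2 gave 0 in each as well. Over all V the pairs called were 0.42%, 0% and 0.466%. At an unadjusted p under 0.05 there were 7, 2 and 6 TRAV4-4 pairs, against a background of 12.8%, 5.14% and 12.1% of all pairs. The Il2° comparison had 4 TRAV4-4 pairs without overlap between the groups, against 8.61% of all pairs, the comparison of Il15° with wt had 1, against 5.78%, and that of the mutants had 2, against 6.29%.

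The shares of the V groups TRAV12-2, TRAV7-4 and TRAV4-3 followed the TRAV4-4 share most closely over the 12 libraries, with Pearson correlations of 0.515, 0.446 and 0.427. The points share libraries and totals, so that these are given as a description.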

How the data were processed

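TCRα-seq was done on newly developed thymic Treg of 12 mice, 4 per genotype. The authors built a consensus per UMI with pRESTO, assembled clones with MiXCR and deposited tables in VDJtools format; the deposited count is whole UMIs, not normalised, and the deposited fraction is that count over the library total. Per the labels the build was mm10. The V end and J start of each CDR3 are positions from the deposited tables; 28 TRAV4-4 rows whose J start lay past the CDR3 were left out of the nucleotides between V and J.

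Shares were computed from the counts. The V copies were merged. Means were weighted by UMIs. The test between genotypes was the Mann-Whitney test of the paper, exact and 2-sided (scipy 1.17.1), and TRAV4-4 with the other V of the same mouse by exact sign-flip tests. Counts per V-J pair and clonotype were fitted over the whole table with edgeR 4.0.16 (R 4.3.3; quasi-likelihood, TMM), for rows that reached 5 UMIs in 4 or more of 8 libraries, with Benjamini-Hochberg adjustment at 0.05; DESeq2 1.42.0 was an alternative. The statistics were tested on simulated data. The 18 pairs of replicate libraries differed by more than sampling noise (chi-square over its degrees of freedom from 2.32 to 8.48).

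Named clonotypes were the 8 with the highest mean share, the 3 with the smallest edgeR p per comparison and any past the threshold; named J segments were those at 5% or more of TRAV4-4 UMIs and those of the 2 V-J pairs with the smallest p per comparison, and J segments at 2% or more were tested against the rest. The members and lists were chosen with earlier results of these data known. Depth was 7625 to 25980 UMIs per library; intervals are 95% Wilson intervals. Alternatives covered UMI minimum, clonotype definition, weighting, normalisation, filters, the replicate block and each library left out. Segment positions and ends came from GENCODE M21 (GRCm38). Python 3.11.15, numpy 2.4.6, pandas 2.3.3 and matplotlib 3.10.9 were used.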

Additional observations from a re-analysis of the deposited data

Results flagged for a closer look

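The highest or lowest library stood apart from the other 3 of its genotype (Dixon's test at 95%) in 12 of 78 groups of 4 values. The chance rate of about 1 in 20 holds for independent groups. These groups share libraries and hold nested measures, so an excess of flags cannot be read from the count. At 6.26% of all UMIs, the TRAV4-4 share of wt replicate 4 was under the 7.22% to 7.28% of its group, and at 6.80% that of Il15° replicate 2 was over the 6.11% to 6.20% of its group. The mean CDR3 length was 12.88 residues in Il2° replicate 4, the smallest library, against 12.95 to 12.96. The nucleotides between V and J numbered 2.51 in wt replicate 3, against 2.33 to 2.34, and the mean J number was 21.2 in Il15° replicate 1, against 22.7 to 22.9.

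Among clonotypes, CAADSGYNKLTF made up 0.362% of all UMIs in wt replicate 1, against 0.277% to 0.288%. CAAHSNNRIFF made up 0.208% in wt replicate 4, against 0.108% to 0.119%, and 0.0151% in Il2° replicate 1, against 0.0715% to 0.0787%. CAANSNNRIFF made up 0.233% in Il15° replicate 1, against 0.0646% to 0.0800%. TRAV4-4 with TRAJ17 made up 1.65% in Il2° replicate 2, against 0.874% to 0.943%. TRAV4-4 with TRAJ16 made up 0.0251% in wt replicate 2, against at most 0.00385%, and 0% in Il2° replicate 1, against 0.0845% to 0.0918%.

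Outside the comparisons, 5.93% of the TRAV4-4 UMIs (822 UMIs in 267 rows) were out of frame or held a stop codon. The share ran from 3.98% to 8.85% over the libraries, against 3.29% to 5.25% for the other V. Of these UMIs, 67.8% were joined to TRAJ44 and 15.3% to TRAJ47, whose deposited CDR3 ended 1 base past a codon and read in frame without that base. The other J segments held 139 of these UMIs. With all V together, 3 of 2180 TRAJ44 UMIs and 4 of 1801 TRAJ47 UMIs were in frame as deposited.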

How the results depend on the processing

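Apart from leaving out a library, 126 of 155 recomputed results kept their direction and their side of the threshold, which for Mann-Whitney measures is full separation of the groups. The shorter CDR3 of Il2° against wt did so under every alternative tried, between 0.109 and 0.146 residues with a library left out (exact p at its smallest each time), and at 0.128 as the difference from the rest of the library, an alternative chosen after seeing the data. The turned directions below belong to differences that had not passed the test, except for CDR3 length against TRAV4-3, and the cause was not tested.

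With clonotypes of at least 2 UMIs, Il2° minus wt became -0.0564 for nucleotides between V and J, 3.47 percentage points for the 10 largest clonotypes and -10.3 effective clonotypes, and Il15° minus Il2° became -0.820 percentage points for the 10 largest. With each clonotype counted once, the share became 0.0623 percentage points for Il2° minus wt and -0.640 for Il15° minus Il2° (now without overlap), hydropathy 0.0431 and -0.0940, nucleotides between V and J -0.0161 for Il2° minus wt, and the J number -0.199 for Il2° minus wt, -0.139 for Il15° minus wt and 0.0609 for Il15° minus Il2°. Hydropathy became 0.000473 for Il15° minus wt without the largest clonotype and -0.0625 for Il15° minus Il2° with 3 residues taken off each end. With all UMIs, the effective clonotypes became -4.16 for Il2° minus wt, and with V and J ends matched to the reference (chosen after seeing the data) the nucleotides became -0.0393. With TRAJ44 and TRAJ47 read without the last base of the CDR3 (also chosen after seeing the data), hydropathy became 0.00864 for Il15° minus wt and the nucleotides -0.0174 for Il2° minus wt.

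Against TRAV4-3 as the rest, TRAV4-4 was 0.436 residues longer and its J number -3.61 (now past the threshold). With each clonotype counted once, hydropathy was -0.0294, nucleotides between V and J 0.129 (both no longer past it) and the J number 0.929 (turned and now past it, exact p = 0.00732). In wt libraries alone the differences were -0.0131 residues, -0.149 in hydropathy and 0.336 nucleotides, where 4 mice cannot reach the threshold.

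Without a filter on low counts, 1 V-J pair of TRAV4-4 was called in Il2° against wt (TRAJ9, adjusted p = 0.0151) and 1 in Il15° against wt (TRAJ28, adjusted p = 0.0374). With at least 3 UMIs in at least 3 libraries, 1 clonotype was called in Il2° against wt (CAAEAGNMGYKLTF, adjusted p = 0.0343). The replicate number as a block called 0 TRAV4-4 pairs and 0 clonotypes in every comparison. Same-numbered Il2° and wt libraries had correlations of deviations of -0.162, 0.137, -0.124 and 0.186, so that the numbers were not taken to pair the mice.

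Leaving out 1 library at a time gave these ranges for Il2° minus wt: share -1.21 to -0.843 percentage points, hydropathy -0.0643 to 0.0137, nucleotides between V and J -0.0985 to 0.0878, 10 largest -3.39 to 1.31, effective clonotypes -3.26 to 7.97, J number 0.617 to 2.41, V-J pairs 0 to 1 and clonotypes 0 to 1, each 1 without wt replicate 2. For Il15° minus wt they were -0.926 to -0.587 for the share, -0.135 to -0.0335 residues, -0.0366 to 0.0299, -0.345 to -0.200, 0.0799 to 4.78, -18.3 to -7.03 and -0.0401 to 0.707, and for Il15° minus Il2° 0.122 to 0.408, -0.00584 to 0.0954 residues, -0.0151 to 0.0629, -0.356 to -0.169, 2.31 to 4.49, -19.4 to -11.3 and -2.11 to -0.318, in the same order with CDR3 length after the share. Against the rest, length ranged from -0.107 to -0.0741 residues, the J number from -1.20 (without Il2° replicate 1, past the threshold) to -0.648, and J segments called from 16 to 17. A clonotype with 0 UMIs in a library could lie below the limit of 3 UMIs, between 0.0115% and 0.0393%, so that a count of 0 did not show absence.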
